A study of Mus musculus with 4 samples.

Results

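The 43 genes described here encode the TGF-beta, BMP and GDF signaling pathway and were picked out by symbol from the 22322 genes of each library. They comprise ligands, the proteins that store or bind them, their receptors and co-receptors, the Smad proteins and their regulators, and the Id target genes. RNA was sequenced from isolated cardiomyocytes of 2 sham-operated mice and 2 mice with transverse aortic constriction (TAC), a narrowing of the aorta that loads the left ventricle with pressure. Per the methods of the study, the mice were male, 2 months old at surgery, and were examined 14 weeks after TAC. Their hearts were digested by Langendorff perfusion, and the cells of one heart were divided over several tubes, one of which went to RNA sequencing. No allele or strain of the mice is stated. The labels number the replicates and do not say more about them, so p-values measure the spread between these libraries. The methods of the study speak of pairs of sham and TAC mice without saying what a pair shares or which libraries form one. The groups were therefore compared without pairing.

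TGF-beta, BMPs, activins and GDFs are secreted dimers. Apart from GDF15, most of them bring type I and type II receptor kinases together on the cell surface. The type I receptor then phosphorylates receptor-regulated Smads, which join Smad4 and enter the nucleus. TGF-beta and activin signal mainly through Smad2 and Smad3, and BMPs mainly through Smad1, Smad5 and Smad9. In the heart, TGF-beta is best known for driving fibroblasts to deposit matrix, BMP signals for shaping valves and chambers during development, and GDF15 as a stress-induced circulating protein.

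The libraries held 24237777 to 32118323 expected counts, with a count in 14495 to 14949 genes. The mitochondrial genes took 47.4% of the counts in TAC 1 and 39.8% to 40.9% in the other libraries. The 12 cardiomyocyte markers summed to between 83200 and 92400 CPM (counts per library size, scaled by TMM factors) in every library. Markers of non-myocytes were far lower, and none of the 48 endothelial, fibroblast, macrophage and mural genes was at 0 in any library. The endothelial list summed to 747 and 629 CPM in the sham libraries and to 347 and 487 CPM in the TAC libraries. For the fibroblast list the sums were 512 and 361 CPM in sham and 209 and 279 CPM in TAC, and for the mural list 788 and 820 CPM in sham and 455 and 600 CPM in TAC. Abcc9, a potassium channel subunit that cardiomyocytes also express, gave a large part of the mural sum, which was 408 and 414 CPM in sham and 176 and 297 CPM in TAC without it. The macrophage list held 140 and 71.5 CPM in sham and 39.3 and 71.9 CPM in TAC. All 48 genes had a negative log2 fold change, and 4 endothelial, 6 fibroblast, 2 mural (Pdgfrb and Abcc9) and 0 macrophage genes passed the test as lower in TAC (6 macrophage genes were at an unadjusted p under 0.05). The median log2 fold change was -0.68 for the endothelial, -0.82 for the fibroblast, -0.77 for the mural and -0.88 for the macrophage list, and 0.06 for the cardiomyocyte list. In bulk RNA, fewer cells of a type and less RNA per cell cannot be told apart.

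Of the 43 genes, 40 had enough counts to be tested by the quasi-likelihood test of edgeR, and 6 were called at a Benjamini-Hochberg adjusted p under 0.05. That is 15.0% of those tested, beside 5.01% of the 12499 genes tested in all. Tgfb2, Gdf15, Fstl3 and Smurf2 were higher in TAC, where 2.58% of all tested genes were called higher. Tgfbr3 and Id1 were lower, where 2.43% of all tested genes were called lower. Both TAC libraries lay above both sham libraries for 9 of the 40 genes, against 29.8% of all tested genes, and below them for 20, against 30.3%. The median log2 fold change of the 40 genes was -0.16 and that of all tested genes was -0.01. At an unadjusted p under 0.05 there were 19 of the 40 genes and 3438 of all tested genes. Two-sided exact permutation of 2 against 2 libraries reaches p = 0.333 at best, so each p rests on the spread that edgeR pools over genes. A fit without one library leaves a group of 1, which is assumed to vary like the other group, so the values given without a library show what that library contributes and are no measure of stability.

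**Figure D1:**
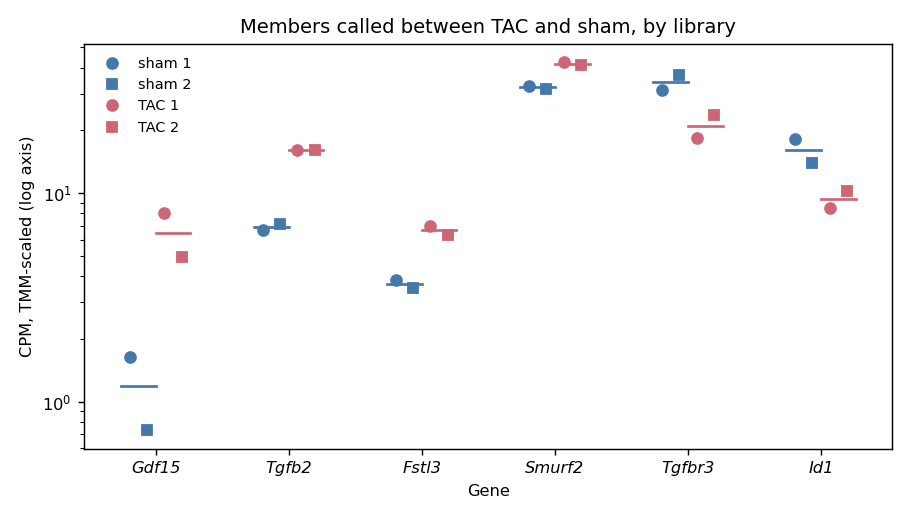
CPM (log axis) of the 6 called genes in each library, with circles for replicate 1, squares for replicate 2 and lines for group means. Sham and TAC do not overlap in any of the 6 genes. Among all tested genes, both TAC libraries were above both sham libraries in 29.8% and below them in 30.3%. The groups lie farthest apart in Gdf15 (1.64 and 0.73 CPM against 8.0 and 4.95 CPM).

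Among the TGF-beta ligands, Tgfb2 rose and the other two genes did not pass the test. Tgfb2 encodes the isoform needed for heart and valve formation in the embryo and lies at chr1:186622792-186705989 (minus strand, GRCm38). It was measured at 6.64 and 7.09 CPM in the sham libraries and at 16.1 and 16.2 CPM in the TAC libraries. Each pair was tight, and the groups were well apart. TAC exceeded sham by a log2 fold change of 1.23 ± 0.12 (SE), or 2.35-fold, with an adjusted p of 0.00492. With each library left out in turn, the adjusted p of Tgfb2 was 0.00046 to 0.00775. By limma on log2 FPKM it was 0.0514 with a pseudocount of 0.1 and 0.048 with 1. An antisense gene, Gm29491, overlaps its exons, and since strand use is not stated its reads cannot be told apart from those of Tgfb2.

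Tgfb1, the isoform most studied in cardiac fibrosis, was at 9.16 and 7.47 CPM in sham and at 4.66 and 7.65 CPM in TAC. Only TAC 1 was low, and TAC 2 lay within the sham range. The difference (log2 fold change -0.44 ± 0.24) did not pass (adjusted p = 0.274). Without TAC 2 the adjusted p was 0.0413, and without TAC 1 it was 0.8. Tgfb3 overlapped between groups, with 6.73 and 6.36 CPM in sham, 5.02 and 6.79 CPM in TAC and an adjusted p of 0.628.

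Levels per transcript length were compared by deposited FPKM. Tgfb1 stood at 4.62 and 3.67 FPKM in sham and at 1.86 and 3.55 FPKM in TAC. Tgfb2 stood at 1.47 and 1.55 FPKM in sham and at 2.94 and 3.48 FPKM in TAC. Of the summed FPKM of the 3 ligands, Tgfb2 made up 17.8% and 21.6% in sham and 48.3% and 38.5% in TAC. The share of Tgfb1 was 55.9% and 51.2% in sham and 30.5% and 39.2% in TAC, and that of Tgfb3 stayed between 21.2% and 27.2%. Thus Tgfb1 was the most abundant ligand transcript in both sham libraries and Tgfb2 in TAC 1, whereas in TAC 2 the shares of Tgfb1 and Tgfb2 were nearly equal. These shares are a description and were not tested.

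**Figure D2:**
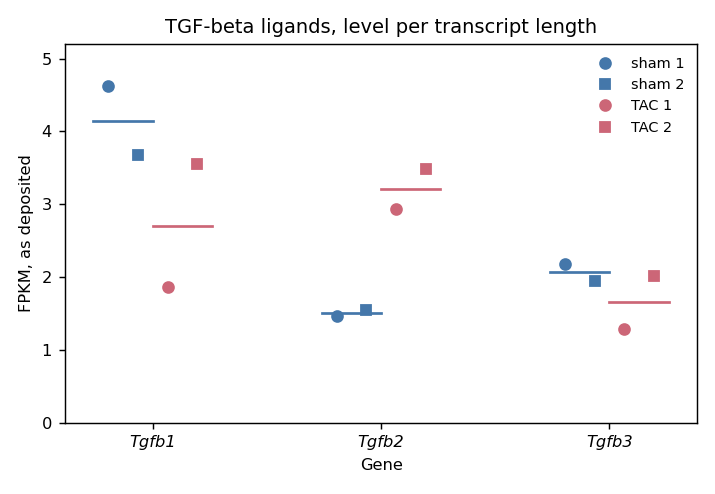
Deposited FPKM of the 3 TGF-beta ligand genes in each library, with lines for group means. Both TAC libraries lie above both sham libraries for Tgfb2, whereas Tgfb1 is at 1.86 FPKM in TAC 1 and, at 3.55 FPKM in TAC 2, just under sham 2.

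The 250 bases upstream of the Tgfb2 and Fstl3 starts are shown as examples of genes that rose with a Smad box, the short motif that Smad3 and Smad4 can contact, upstream of the start. The other two genes that rose hold GTCTGG upstream of the start as well, and Smurf2 also has CAGACA just downstream of it. Either motif was found in 11 of the 32 genes with a window (34.4%), beside 31.6% of tested genes, and Tgfbr3 and Id1 were not among the 32. Sequences are from RefSeq (GRCm38.p6), 5′ to 3′ on the strand of the gene, with motif letters in capitals. Tgfb2 at chr1:186705990-186706239 (minus strand) has CAGACA, and Fstl3 at chr10:79777024-79777273 (plus strand) has TGTCTGG, in which TGTCTG (the reverse complement of CAGACA) and GTCTGG overlap.
Tgfb2: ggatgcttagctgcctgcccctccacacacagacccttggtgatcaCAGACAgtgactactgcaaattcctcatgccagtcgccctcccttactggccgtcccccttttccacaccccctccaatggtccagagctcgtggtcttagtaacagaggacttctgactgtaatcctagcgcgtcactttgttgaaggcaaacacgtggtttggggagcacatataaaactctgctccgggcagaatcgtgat
Fstl3: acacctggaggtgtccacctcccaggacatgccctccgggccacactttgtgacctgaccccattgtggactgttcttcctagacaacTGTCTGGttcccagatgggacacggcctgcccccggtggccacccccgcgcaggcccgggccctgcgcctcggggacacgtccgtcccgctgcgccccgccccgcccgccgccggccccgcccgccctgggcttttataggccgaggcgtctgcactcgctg
The motif begins 204 bases before the start of Tgfb2 and 162 bases before that of Fstl3. Windows of 300 bases (250 upstream and 50 downstream of the start) were present for 32 of the 43 genes and were searched on both strands. CAGACA was found in 7 of them (21.9%), beside 18.7% of the 9921 tested genes with a window. GTCTGG was found in 7 (21.9%) beside 21.3%, and GGCGCC, a GC-rich element of BMP targets, in 9 (28.1%) beside 24.8%. The palindrome GTCTAGAC occurred in 1 gene, Smad6, beside 0.282% of tested genes. Both motif matches and their absence are descriptions of these letters in these windows.

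Latent TGF-beta binding proteins hold secreted TGF-beta in the matrix until it is released. None of the 4 genes passed the test by edgeR or DESeq2 (2 were at an unadjusted p under 0.05), and their log2 fold changes ran from -0.67 to 0.03. Ltbp4 was the most abundant per length (9.38 to 25.71 FPKM) in every library and read 120.0 and 81.4 CPM in sham and 55.3 and 71.2 CPM in TAC. The groups were apart, but sham 1 stood well above sham 2. Its log2 fold change was -0.67 ± 0.19 (adjusted p = 0.0795), and the adjusted p was 0.00155 without sham 2 and 0.0272 without TAC 2. Ltbp1 was steadier, at 35.7 and 35.6 CPM in sham and 26.1 and 28.5 CPM in TAC. It gave a log2 fold change of -0.38 ± 0.09 and an adjusted p of 0.0525, which became 0.0333 without TAC 2 and 0.0358 with scaling by totals without the mitochondrial genes, whose share was highest in TAC 1. Ltbp2 and Ltbp3 overlapped between groups, with adjusted p of 0.832 and 0.883.

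BMP ligands were scarce, and none of the 4 tested passed the test by edgeR (3 were at an unadjusted p under 0.05). DESeq2 gave no adjusted p for Bmp2 and Bmp4 and called neither Bmp6 nor Bmp7. Bmp6, an endothelial and hepatic BMP also known for iron control, was the most abundant of them, with a mean of 2.51 FPKM. It was found at 9.7 and 11.5 CPM in sham and at 5.77 and 8.42 CPM in TAC, and the groups did not overlap. The log2 fold change was -0.58 ± 0.20 (adjusted p = 0.118), and without TAC 2 the adjusted p was 0.0254. Exons of Txndc5 on the opposite strand overlap Bmp6. Bmp2, which acts in valve and conduction tissue development, had 36 and 16 counts in sham and 8 and 4 in TAC, with a log2 fold change of -1.88 ± 0.59 and an adjusted p of 0.0991. Bmp4 had 37 and 32 counts in sham and 14 and 15 in TAC, with a log2 fold change of -1.03 ± 0.38 and an adjusted p of 0.138. For both genes every TAC library was below every sham library, at counts too low for a firm statement. Bmp7 differed little (1.96 and 1.95 CPM against 1.79 and 1.76 CPM, adjusted p = 0.772).

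Bmp10, a BMP made chiefly in atrial muscle, was left out by the count filter. Sham 1 held 95 counts, whereas sham 2 held 9 and the TAC libraries 6 and 2. A single sham library therefore carried nearly all of its reads. Other genes of atrial muscle, chosen after Bmp10 had been seen, were also uneven between the sham libraries. The atrial light chain Myl7 was at 25.8 and 1.32 CPM in sham and 8.93 and 12.9 CPM in TAC, Myl4 at 36.7 and 3.3 CPM in sham and 13.6 and 20.2 CPM in TAC, and sarcolipin (Sln) at 5.81 and 0.73 CPM in sham and 2.3 and 1.72 CPM in TAC. Nppa, the atrial natriuretic peptide gene, which ventricular muscle also expresses under load, was at 208 and 106 CPM in sham and 485 and 378 CPM in TAC and was called higher (adjusted p = 0.0334). The part of these genes in the Bmp10 values was not tested. When low genes were kept, or when sham 2 was left out, Bmp10 was called lower in TAC.

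Of the activin and GDF ligands, Gdf15 rose most of all 40 tested genes. Gdf15, a distant family member released by stressed cells, lies at chr8:70629393-70632456 (minus strand, GRCm38). Its values were 1.64 and 0.73 CPM in sham and 8.0 and 4.95 CPM in TAC, from 52, 21, 223 and 121 counts. Every TAC library was above every sham library, although both pairs were spread. This gave a log2 fold change of 2.43 ± 0.39, or 5.4-fold, with an adjusted p of 0.0207. Its adjusted p was 6.49e-05 to 0.047 with each library left out in turn. The study named Gdf15 as changed in these same libraries, so the rise is not independent evidence. The activin subunits Inhba (0.574 to 1.02 CPM) and Inhbb (0.466 to 0.938 CPM) were close to the limit of the data, with adjusted p of 0.827 and 0.479. Mstn, which encodes the muscle growth inhibitor myostatin, had 4 counts in sham 2, 1 in TAC 2 and 0 in sham 1 and TAC 1. A count of 0 allows up to 3 counts, or 0.0948 CPM in sham 1 and 0.108 CPM in TAC 1 (counting error only).

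Follistatin-type proteins bind activins and related ligands outside the cell. Fstl3, which neutralizes activins and myostatin, rose in TAC, whereas Fstl1, a secreted glycoprotein made largely by stromal cells, did not pass the test and had a negative fold change. Fstl3 lies at chr10:79777272-79782630 (plus strand, GRCm38) and had 3.82 and 3.51 CPM in sham and 6.96 and 6.34 CPM in TAC. The pairs were narrow and did not overlap. Its log2 fold change was 0.86 ± 0.17, or 1.81-fold, with an adjusted p of 0.0385. The adjusted p was 0.03 without TAC 2, 0.0562 without sham 1, 0.0872 without sham 2 and 0.122 without TAC 1. With scaling by total counts, under which 4 of the 40 genes and 4.22% of all tested genes were called, it was 0.101, and by limma on log2 FPKM 0.133 and 0.125 with pseudocounts of 0.1 and 1. The exons of Prss57 on the opposite strand overlap Fstl3. Fstl1 read 21.7 and 15.0 CPM in sham and 11.4 and 12.7 CPM in TAC, with sham 1 the highest. Fstl1 gave a log2 fold change of -0.61 ± 0.18 (adjusted p = 0.0868), and the adjusted p was 0.00751 without sham 2 and 0.358 without sham 1. Fst itself had 2 to 8 counts and was not tested.

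None of the 5 type I receptors passed the test by edgeR or DESeq2, and 2 were at an unadjusted p under 0.05. Bmpr1a, the main type I receptor for BMP2 and BMP4, had the highest mean FPKM of all 43 genes over the 4 libraries (17.1 FPKM). In sham alone the means of Ltbp4 (21.1 FPKM) and Eng (20.2 FPKM) were above that of Bmpr1a (17.8 FPKM). Bmpr1a was even across libraries, at 95.2 and 91.2 CPM in sham and 95.3 and 101.0 CPM in TAC. The log2 fold change of Bmpr1a was 0.07 ± 0.07 (adjusted p = 0.557) and turned to -0.11 under scaling by total counts. Bmpr1a made up 52.4% to 59.7% of the summed type I receptor FPKM. Tgfbr1, the type I receptor for TGF-beta, made up 7.24% to 9.92% of it and was at 13.2 and 13.4 CPM in sham and 16.2 and 14.1 CPM in TAC (log2 fold change 0.19 ± 0.12, adjusted p = 0.338). Its direction turned under scaling by total counts, with a log2 fold change of -0.01. Acvrl1, a receptor for BMP9 and BMP10 known from endothelial cells, was at 11 and 8.51 CPM in sham and 5.74 and 7.97 CPM in TAC. Acvrl1 gave a log2 fold change of -0.51 ± 0.20 (adjusted p = 0.159). Acvr1b, an activin receptor, gave -0.33 ± 0.11 (adjusted p = 0.123), and Acvr1 gave -0.15 ± 0.18 (adjusted p = 0.626).

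Type II receptors likewise gave 0 calls of 4 by edgeR, with 2 genes at an unadjusted p under 0.05. DESeq2 called 0 of the 3 to which it gave an adjusted p, which excluded Acvr2b. Bmpr2, the BMP receptor linked to pulmonary hypertension, contributed 42.3% to 46.1% of their summed FPKM. Its CPM values were 96.1 and 95.2 in sham and 77.9 and 93.6 in TAC (log2 fold change -0.16 ± 0.10, adjusted p = 0.326). Acvr2a, which binds activins, myostatin and several BMPs, was at 21.5 and 20.9 CPM in sham and 25.8 and 26.9 CPM in TAC. The pairs were close and did not overlap, and the log2 fold change was 0.31 ± 0.09 (adjusted p = 0.0865). Acvr2a accounted for 22.6% and 23.0% of type II receptor FPKM in sham and 31.8% and 28.5% in TAC. Exons of Orc4 on the opposite strand overlap Acvr2a. Its relative Acvr2b was scarce, with 36 and 28 counts in sham and 8 and 15 in TAC (log2 fold change -1.24 ± 0.47, adjusted p = 0.145). Tgfbr2, the type II receptor for TGF-beta, gave -0.24 ± 0.13 (adjusted p = 0.268).

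The co-receptors Tgfbr3 and Eng were both below sham in both TAC libraries, as were 30.3% of all tested genes, and Tgfbr3 passed the test. Tgfbr3 (betaglycan) presents TGF-beta, TGF-beta2 above all, to the receptor kinases and also binds inhibins. It lies at chr5:107106570-107289629 (minus strand, GRCm38). Tgfbr3 was at 31.4 and 37.0 CPM in sham and at 18.4 and 23.6 CPM in TAC. TAC 1 was the lowest and sham 2 the highest. The log2 fold change was -0.71 ± 0.14, or 1.63-fold lower, with an adjusted p of 0.0371. The adjusted p was 0.00278 without sham 1 and 0.00535 without TAC 2, whereas leaving out sham 2 gave 0.0511 and leaving out TAC 1 gave 0.0824. By limma on log2 FPKM it was 0.0857 and 0.0819 with pseudocounts of 0.1 and 1. Eng (endoglin), an endothelial co-receptor, had the second highest mean per length of the 43 genes (16.5 FPKM, beside 16.4 FPKM for Ltbp4). Exons of Fpgs on the opposite strand overlap Eng. It was at 72.4 and 54.5 CPM in sham and at 39.9 and 50.7 CPM in TAC. The gap between sham 2 and TAC 2 was small. Its log2 fold change was -0.49 ± 0.16 (adjusted p = 0.105), and the adjusted p was 0.0128 without sham 2 and 0.0323 without TAC 2. DESeq2, which called 8.02% of all genes with an adjusted p, called Eng (adjusted p = 0.0342) and, at the threshold, Fstl1.

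**Figure D3:**
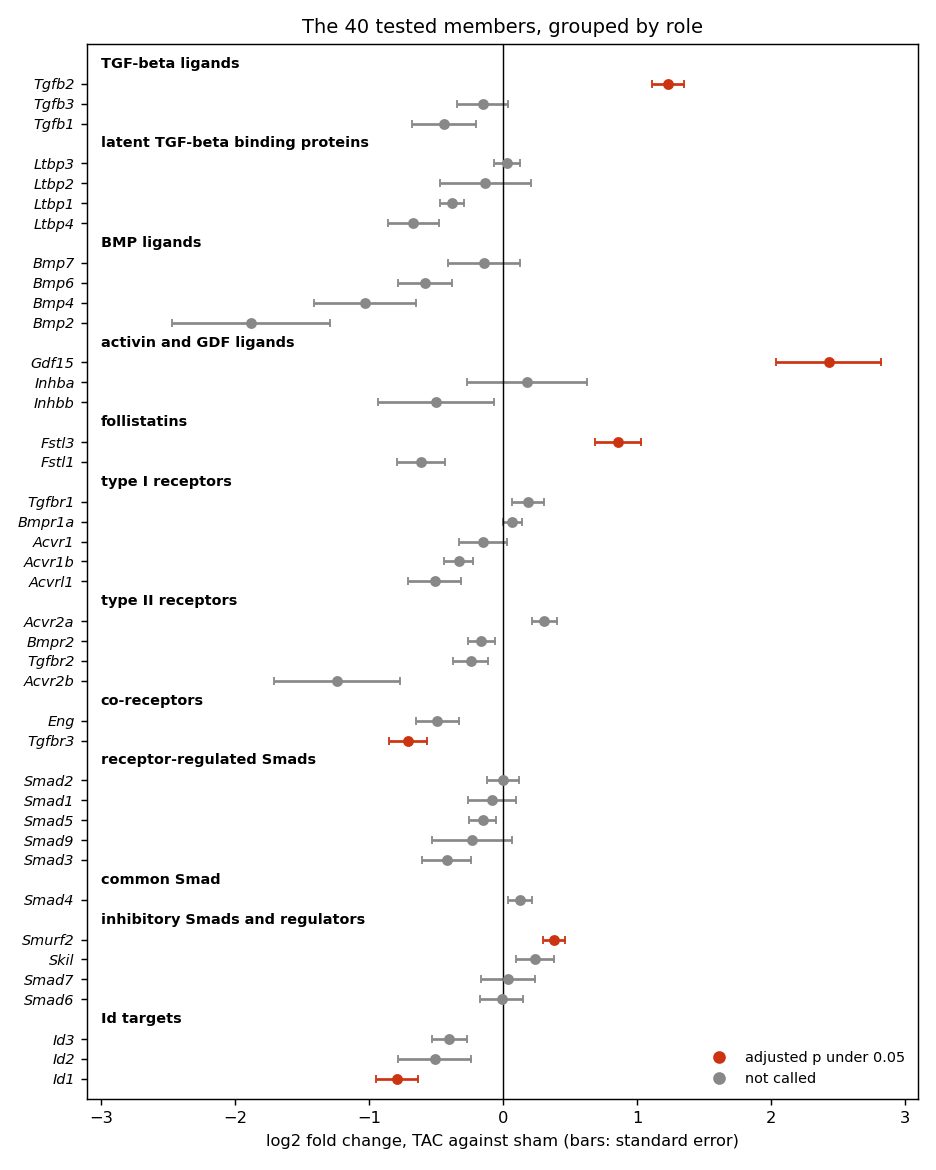
Log2 fold change of TAC against sham (x axis, bars show the standard error) for the 40 tested genes, grouped by role, with called genes in red. Red points lie to the right for Tgfb2, Gdf15, Fstl3 and Smurf2 and to the left for Tgfbr3 and Id1, and the Smads cluster around 0.

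The Smads showed small differences, and none of the 8 passed the test by edgeR or DESeq2, with 1 (Smad3) at an unadjusted p under 0.05. Of the receptor-regulated Smads, Smad5 had the highest mean per length (4.85 FPKM, beside 4.72 FPKM for Smad2, which was above Smad5 in sham 2 and TAC 1). Smad5 was at 35.7 and 30.8 CPM in sham and 30.1 and 30.0 CPM in TAC (log2 fold change -0.15 ± 0.10, adjusted p = 0.371). Smad2 was at 15.2 and 14.3 CPM in sham and 15.8 and 13.7 CPM in TAC. Its log2 fold change was 0.00 ± 0.12. Smad3, which binds DNA in the TGF-beta response, was at 16.3 and 15.3 CPM in sham and at 9.65 and 14 CPM in TAC. TAC 1 was the low library, and the log2 fold change was -0.42 ± 0.18 (adjusted p = 0.174). For Smad3 the adjusted p was 0.0234 without TAC 2 and 0.593 without TAC 1. Smad1 (-0.08 ± 0.18) and Smad9 (-0.23 ± 0.30) were lower on average by less than their standard errors. The shared partner Smad4 was at 28.0 and 26.4 CPM in sham and 29.9 and 29.6 CPM in TAC (log2 fold change 0.13 ± 0.09, adjusted p = 0.373), and the sign turned with scaling by total counts (-0.06). The inhibitory Smads, which are induced by the pathway and block its receptors, were level, with log2 fold changes of -0.01 ± 0.16 for Smad6 and 0.04 ± 0.20 for Smad7. Under scaling by total counts the value for Smad7 was -0.16.

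Among the other regulators, Smurf2 rose by a small amount that depended on the scaling. Smurf2 is a ubiquitin ligase that works with Smad7 to remove receptors and Smads, and lies at chr11:106820066-106920715 (minus strand, GRCm38). The CPM values were 32.7 and 31.6 in sham and 42.4 and 41.3 in TAC. Both pairs were tight. The log2 fold change was 0.38 ± 0.08, or 1.3-fold, with an adjusted p of 0.0449. The adjusted p was 0.0391 without TAC 2, 0.102 without sham 1, 0.126 without sham 2 and 0.122 without TAC 1. With scaling by total counts, which shifted the median of all genes from -0.01 to -0.20, it was 0.42, at a log2 fold change of 0.19. On log2 FPKM, limma gave a log2 fold change of 0.11 with a pseudocount of 0.1 (adjusted p = 0.725) and 0.10 with 1 (adjusted p = 0.73). Skil (SnoN), a repressor of Smad transcription, was at 12.2 and 9.87 CPM in sham and 12.3 and 13.7 CPM in TAC (log2 fold change 0.24 ± 0.14, adjusted p = 0.316).

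All 3 Id genes were below sham in both TAC libraries, as were 30.3% of all tested genes, and Id1 passed the test. Id proteins block basic helix-loop-helix factors, and their genes are the usual readout of BMP signaling. Id1, at chr2:152736251-152737410 (plus strand, GRCm38), was at 18.2 and 14 CPM in sham and at 8.5 and 10.2 CPM in TAC. The groups were apart, with sham 1 the highest. Id1 had a log2 fold change of -0.79 ± 0.16, or 1.73-fold lower, with an adjusted p of 0.0423. Id1 was at 0.00756 without sham 2 and 0.0203 without TAC 2 by adjusted p, but at 0.0853 without sham 1 and 0.125 without TAC 1, and limma on log2 FPKM gave 0.0534 and 0.0518 with pseudocounts of 0.1 and 1. Id3 was at 15.8 and 13.7 CPM in sham and 10.8 and 11.7 CPM in TAC (log2 fold change -0.40 ± 0.13, adjusted p = 0.101). Id2 was at 3.54 and 2.5 CPM in sham and 2.15 and 2.09 CPM in TAC (log2 fold change -0.51 ± 0.27, adjusted p = 0.252).

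Of the 20 genes with both TAC libraries below both sham libraries, 12 (60.0%) were highest in sham 1 and lowest in TAC 1, beside 1537 (40.5%) of the 3793 tested genes below sham in this way. This is the order in which the endothelial, fibroblast and macrophage lists were also highest and lowest by sum. Relative to the mean of the 4 libraries, the median endothelial marker was at 0.45, 0.10, -0.66 and -0.11 (log2) in sham 1, sham 2, TAC 1 and TAC 2, and the median fibroblast marker at 0.51, 0.09, -0.60 and -0.31. Eng followed with 0.41, 0.00, -0.45 and -0.10, Acvrl1 with 0.40, 0.04, -0.53 and -0.06, and Ltbp4 with 0.55, -0.01, -0.57 and -0.20. Fstl1 was at 0.51, -0.02, -0.42 and -0.26, and Id1 at 0.52, 0.14, -0.58 and -0.32. For each of them sham 1 was highest and TAC 1 lowest. Other genes had another order, such as Bmp6 and Acvr1b with their highest values in sham 2 and Bmp2 and Id2 with their lowest in TAC 2. Tgfbr3 differed in that sham 2 was its highest library (0.19, 0.42, -0.59 and -0.23). The part of the marker levels in these results was not tested. The 4 genes that rose were picked as higher in TAC, so their lowest value in a sham library is no separate result. They were at or near their highest in TAC 1, where all 4 non-myocyte lists had their lowest sum.

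**Figure D4:**
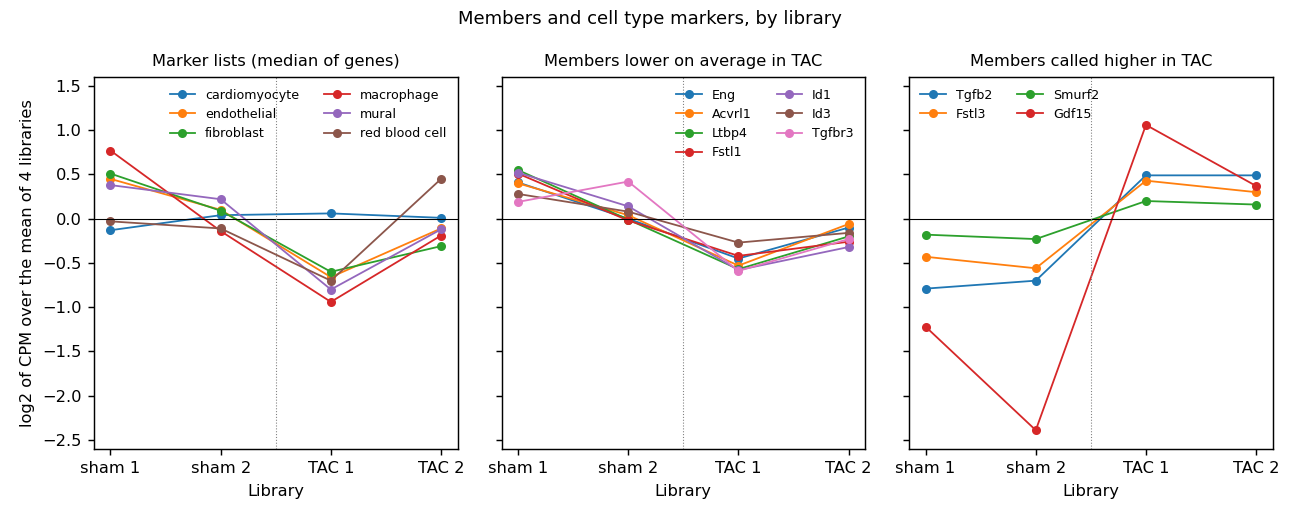
Log2 of CPM over the mean of the 4 libraries (y axis) in each library (x axis) for marker lists (left, median of 12 genes, or 5 for red blood cells), 7 genes with lower TAC values (center) and the 4 genes that rose (right). Endothelial, fibroblast, macrophage and mural markers and the center genes reach their lowest point in TAC 1, where Gdf15 peaks at 1.06. The center genes are a selection from the 20 genes below sham in both TAC libraries, of which 16 were lowest in TAC 1.

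Of 71 further genes of the pathway, 47 were tested and 4 were called (8.51%, beside 5.01% of all tested genes). Their median log2 fold change was -0.07, and that of all tested genes was -0.01. Ccn2 (connective tissue growth factor), a classical TGF-beta target, rose. It was at 44.1 and 52.2 CPM in sham and at 110.0 and 84.5 CPM in TAC, with a log2 fold change of 1.02 ± 0.14 and an adjusted p of 0.0127. The median of the 9 tested target genes was nevertheless -0.47, with 6 of them negative. Of the 6 target genes at an unadjusted p under 0.05, Ccn2 alone was higher. The matrix genes Tgfbi (-0.90 ± 0.22, adjusted p = 0.0619), Col3a1 (-0.87 ± 0.23, adjusted p = 0.0694), Col1a1 (-0.75 ± 0.24, adjusted p = 0.107) and Postn (-0.47 ± 0.19, adjusted p = 0.162) and the Notch and BMP target Hey1 (-0.89 ± 0.26, adjusted p = 0.0865) had lower TAC values and did not pass the test by edgeR. DESeq2 called Col1a1 (adjusted p = 0.0447). Without TAC 2 the edgeR adjusted p was 0.0295 for Tgfbi, 0.0111 for Col3a1, 0.0436 for Col1a1 and 0.0497 for Hey1. Without sham 2 it was 0.0382 for Tgfbi, 0.00284 for Col3a1, 0.0091 for Col1a1 and 0.0367 for Postn. The BMP co-receptor Rgma fell from 27.9 and 24.4 CPM in sham to 11.8 and 17.7 CPM in TAC (log2 fold change -0.83 ± 0.18, adjusted p = 0.0467). Neo1 (neogenin), the receptor for RGM proteins, fell from 93.8 CPM in both sham libraries to 68.4 and 70.7 CPM in TAC (log2 fold change -0.43 ± 0.07, adjusted p = 0.0225). Nedd4l, a ubiquitin ligase that acts on activated Smad2 and Smad3, fell from 26.9 and 27.5 CPM to 20.0 and 19.5 CPM (log2 fold change -0.46 ± 0.09, adjusted p = 0.0385). None of the 4 overlapped between groups, a separation found above sham in 29.8% and below sham in 30.3% of all tested genes. With each library left out in turn, Ccn2 had an adjusted p of 0.00056 to 0.012. Without TAC 1 the adjusted p was 0.0768 for Rgma and 0.0728 for Neo1. For Nedd4l it was 0.0731 without sham 1, 0.092 without sham 2 and 0.089 without TAC 1. By limma on log2 FPKM with pseudocounts of 0.1 and 1, the adjusted p was 0.0869 and 0.0818 for Rgma and 0.06 and 0.0578 for Neo1. The limma values were 0.0246 and 0.0258 for Ccn2 and 0.046 and 0.0454 for Nedd4l. By subgroup, calls were made in 2 of 5 other receptors and co-receptors, 1 of 17 other intracellular regulators and 1 of 9 other target genes. No call was made by edgeR among 3 other ligands, 4 other secreted antagonists and 9 latency and activation genes, where 1, 2 and 3 genes were at an unadjusted p under 0.05. Of these, DESeq2 called Fbn1 (fibrillin-1, a matrix protein that anchors latent TGF-beta), with an adjusted p of 0.00177 beside 0.0648 by edgeR and a log2 fold change of -0.92 ± 0.23. DESeq2 also called Twsg1, an extracellular BMP modulator, with an adjusted p of 0.0486 beside 0.0912 by edgeR and a log2 fold change of 0.34 ± 0.10. Among the other intracellular regulators, Pmepa1 was called higher by DESeq2 (adjusted p = 0.049) and did not pass by edgeR (adjusted p = 0.0793). The log2 fold change of Pmepa1 was 0.55 ± 0.15 by edgeR. With total-count scaling it was 0.36 (adjusted p = 0.299).

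The study set 5 miRNAs against the splicing factor Rbfox2, and their seed matches in the 3′UTRs of the 43 genes are given as sequence context. No miRNA level was analysed here. The mature sequences (RefSeq, 5′ to 3′) have the seed, bases 2 to 8, in capitals, and the 5 seeds all differ.
let-7f-5p: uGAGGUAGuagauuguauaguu
miR-16-5p: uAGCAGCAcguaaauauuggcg
miR-200b-3p: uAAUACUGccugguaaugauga
miR-92a-3p: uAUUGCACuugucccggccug
miR-24-3p: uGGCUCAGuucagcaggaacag
A match to the miR-16 seed (TGCTGCT in the transcript) was present in 19 of 43 genes (44.2%), beside 25.4% of the 12389 tested genes with a 3′UTR. The median 3′UTR was 1782 bases in the 43 genes and 1249 bases in the tested genes, and this difference in length was not corrected for. The shares for the other miRNAs were 11.6% beside 10.7% for let-7f, 20.9% beside 16% for miR-200b, 9.3% beside 7.8% for miR-92a and 18.6% beside 19.7% for miR-24. The median log2 fold change was -0.15 over the 19 tested genes with a miR-16 match and -0.38 over the 21 without one. The difference was not tested. The study reported these miRNAs as raised after TAC, and a shift toward lower expression in genes with predicted sites of raised miRNAs. It used other site predictions and a far wider set of genes, so the medians given here are no check of that result.

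Among the 6 called genes, matches were found in Tgfbr3, Fstl3 and Smurf2. They are printed with the matched letters in capitals, and lie in 3′UTR exons (GRCm38 positions of the matched letters).
Tgfbr3 let-7f match, chr5:107106961-107106967, minus strand: tgtactgtaaCTACCTCatggt
Tgfbr3 miR-16 match, chr5:107109325-107109331, minus strand: tttttttttaTGCTGCTttgtc
Fstl3 miR-16 match, chr10:79782135-79782141, plus strand: ctctgacagcTGCTGCTgcaac
Smurf2 miR-200b match, chr11:106822388-106822394, minus strand: cagagttaggCAGTATTctaca
Tgfbr3, with 2 matches, was lower in TAC, whereas Fstl3 and Smurf2, with 1 each, were higher. Tgfb2, Gdf15 and Id1 had no match to these 5 seeds. A match is a description of the letters and not evidence of binding.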

How the data were processed

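For each of 4 libraries the authors deposited expected counts, which are estimates and can be fractions, together with FPKM, a level scaled by transcript length and library size, for 22322 Ensembl genes. The submitters' processing notes name Bowtie2 2.2.8, StringTie 1.3.1 and the build mm10. Neither strand use nor the handling of shared reads is stated in the sources used here. Between 1432 and 1519 genes per library had counts that were not whole. Expected counts were rounded and tested in R 4.3.3 with edgeR 4.0.16 (filterByExpr, minimum count 10, TMM factors of 0.8683 to 1.097, glmQLFit, glmQLFTest, TAC against sham), with Benjamini-Hochberg adjustment over 12499 genes and calls at an adjusted p under 0.05. The standard error is the log2 fold change divided by the square root of F. Replicate pairs differed beyond sampling noise (chi-square per degree of freedom 9.19 for sham and 31.34 for TAC) and were kept apart. CPM values were scaled by TMM, and FPKM was used for levels and shares between genes and, as an alternative, for limma.

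The 43 genes, the role groups, the 71 further pathway genes and the marker lists were chosen with earlier results of these data known. Values in each library were printed for genes that were called, whose call changed under DESeq2, total-count scaling (the scaling the study names) or without a library, or that were the most abundant of their role, and for some others. Alternatives were DESeq2 1.42.0, total-count and RLE scaling, totals without the 13 mitochondrial genes, no count filter, a replicate block, leaving out each library, adjusted p under 0.1 or 0.01, and limma 3.58.1 on log2(FPKM + 0.1) or log2(FPKM + 1). The scripts were tested on simulated data. Gene positions and 3′UTRs came from GENCODE M21 (GRCm38).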

Additional observations from a re-analysis of the deposited data

How the results depend on the processing

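Of the 43 genes, 6 were called by edgeR. DESeq2 called 8, RLE scaling 6, total-count scaling 4 (Tgfb2, Gdf15, Tgfbr3 and Id1) and totals without mitochondrial genes 5 (the same 4 and Ltbp1). No count filter gave 12, adjusted p under 0.1 gave 11 and under 0.01 gave 1, and limma gave 1 (Gdf15) with a pseudocount of 0.1 and 2 (Gdf15 and Tgfb2) with 1. Leaving out a library gave 2 (without TAC 1), 3 (without sham 1), 7 (without sham 2) and 12 (without TAC 2); these fits leave a group of 1 library, assumed to vary like the other group, and the cause was not tested. Over all genes the count of 626 became 1676 with no filter, 195 and 214 with limma, 1817 and 92 at adjusted p under 0.1 and 0.01, and 301 (without TAC 1) to 1336 (without TAC 2). Called genes lower in TAC made up 48.6% of calls with TMM, 80.1% with total-count scaling and 70.5% with totals without mitochondrial genes. Of the further pathway genes, 4 were called, with 8 by DESeq2, 13 with no filter, 14 and 0 at adjusted p under 0.1 and 0.01, 2 by limma with either pseudocount, and 2 to 13 without a library.

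Samples with the same replicate number did not deviate together (correlation -0.242), so the number was not taken as a pairing. A replicate block gave 566 called genes, 4 of the 43 and 5 further pathway genes. Under the block the adjusted p was 0.053 for Fstl3, 0.0768 for Smurf2 and 0.0629 for Nedd4l. The crossed pairing, added after seeing the data, gave 2131, 13 and 15.

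Direction turned only in genes that were not called. Total-count scaling gave -0.01 for Tgfbr1, -0.16 for Ltbp3, -0.06 for Smad4, -0.16 for Smad7 and -0.11 for Bmpr1a, and totals without mitochondrial genes gave -0.07 for Ltbp3, -0.06 for Smad7 and -0.03 for Bmpr1a. With pseudocounts of 0.1 and 1, limma gave -0.06 and -0.04 for Tgfbr1, -0.19 and -0.16 for Ltbp3, -0.04 and -0.04 for Smad4, -0.03 and -0.03 for Smad7, -0.12 and -0.11 for Bmpr1a, and -0.15 and -0.03 for Inhba. Leaving out a library turned Tgfb3 (-0.38 to 0.05), Ltbp2 (-0.37 to 0.16), Ltbp3 (-0.05 to 0.12), Smad1 (-0.22 to 0.05), Smad6 (-0.1 to 0.1), Smad7 (-0.16 to 0.29), Smad9 (-0.45 to 0.05), Acvr1 (-0.31 to 0.05) and Inhba (-0.28 to 0.55). Smad2, at 0.00 with all libraries, ran from -0.11 to 0.1. The low counts of Bmp2, Bmp4, Acvr2b, Inhba, Inhbb, Fst and Mstn limit what can be said of them.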
